A study of Solanum lycopersicum with 9 samples.

Results

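H3K27me1 peaks of tomato leaf chromatin were compared between wild type (WT) and the *ddm1* mutant. The peaks were those of the H3K27me1 list of each genotype on chromosomes 1 to 12, which held 6044 peaks in WT and 9247 in *ddm1*, together 15291 of the 266074 peaks in 9 lists covering 4 histone marks. The chromatin came from the fourth leaf of plants grown for 1 month in a growth chamber, and was immunoprecipitated and sequenced (ChIP-seq); the plants were *Solanum lycopersicum* cultivar M82. WT plants carried both tomato DDM1 genes, and *ddm1* plants were *Slddm1a/Slddm1b* double mutants. Whole leaves mix cell types, so a site marked in fewer cells and a site marked less in each cell cannot be told apart.

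Monomethylation of lysine 27 on histone H3 is a mark of constitutive heterochromatin, the compact, repeat-rich chromatin that in tomato fills the large central regions of the chromosomes. In Arabidopsis it is placed by the methyltransferases ATXR5 and ATXR6, whereas the trimethylated form of the same lysine, H3K27me3, is placed by Polycomb repressive complexes at silent genes. DDM1 is a nucleosome remodeller that gives DNA methyltransferases access to heterochromatin. H3K9me2, the other constitutive mark of the series, works in a loop with non-CG DNA methylation, and H3K9ac marks active genes.

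There was 1 H3K27me1 list per genotype, so no difference between the genotypes could be set against variation between plants and none was tested. The 95% intervals below cover counting error only and treat peaks as independent. Both lists were made of short, weak peaks of nearly the same kind. WT peaks had a median length of 190 bp and *ddm1* peaks one of 196 bp, not far above the shortest length. The shortest peak was 147 bp in both lists, a length that 645 WT peaks (10.7%) and 941 *ddm1* peaks (10.2%) had. The fold enrichment, which is the read pileup at the summit over the local background estimated by the peak caller, had a median of 2.82 in both lists. The 10th to 90th percentiles of fold were 2.43 to 3.38 in WT and 2.38 to 3.42 in *ddm1*, and only 24 WT and 28 *ddm1* peaks reached a fold of 5. The background level recovered from the peak values, which stands in for the unknown read depth, was 6.98 reads per position in WT and 6.81 in *ddm1*.

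*ddm1* had more H3K27me1 peaks than WT on each of the 12 chromosomes, and chromosome 1 had by far the smallest excess. Over 802 Mb the density was 7.54 peaks per Mb in WT and 11.5 in *ddm1*, a ratio of 1.53 (95% interval 1.48 to 1.58). Chromosome 1 had 751 peaks in WT and 834 in *ddm1*, a ratio of 1.11 (1.01 to 1.23). The next lowest ratios were on chromosome 10, with 538 and 755 peaks (1.40, 1.25 to 1.57), and chromosome 9, with 566 and 817 peaks (1.44, 1.30 to 1.61). The upper bound of chromosome 1 was below the lower bound of every other chromosome. The highest ratio was on chromosome 11, where 448 WT peaks stood against 761 *ddm1* peaks (1.70, 1.51 to 1.91). Chromosomes 2, 12 and 3 followed, with 376 against 633 peaks (1.68), 566 against 944 (1.67) and 475 against 794 (1.67). The intervals of the chromosomes other than 1 all overlapped one another.

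**Figure D1:**
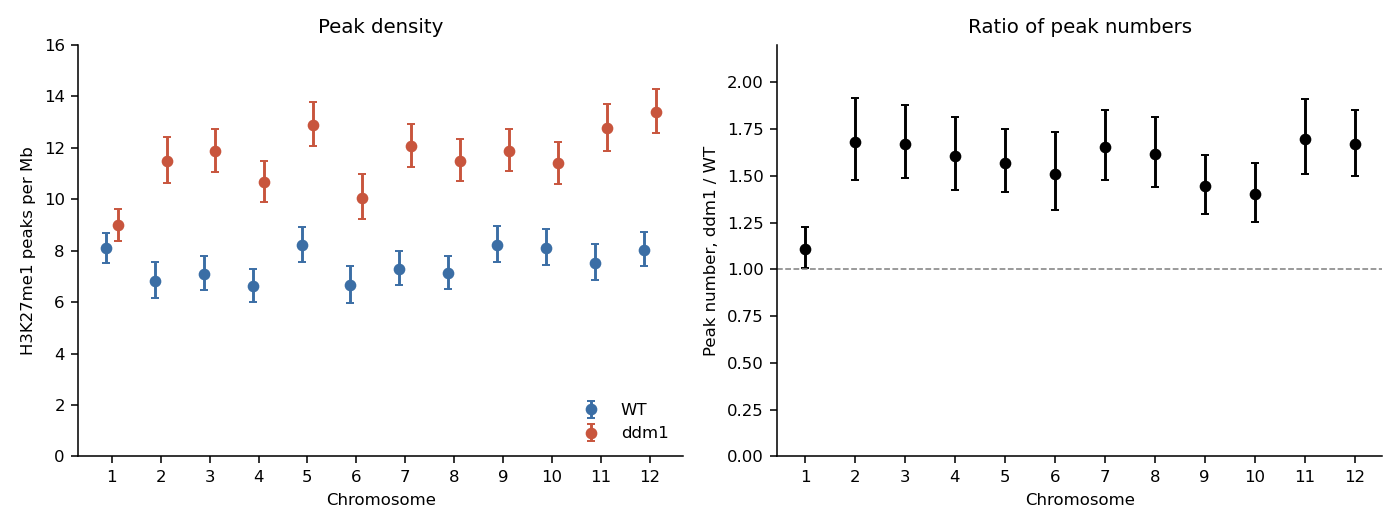
H3K27me1 peaks per Mb on each chromosome (left, WT in blue and *ddm1* in red) and the *ddm1* to WT ratio of peak numbers (right), with points for the single list of each genotype and bars for 95% intervals of counting error. The *ddm1* point is the higher one on all 12 chromosomes, and the ratio of chromosome 1, 1.11, lies apart from the others, which run from 1.40 to 1.70.

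The WT densities ran from 6.63 peaks per Mb on chromosome 4 to 8.23 on chromosome 9. In *ddm1* they ran from 8.98 on chromosome 1 to 13.4 on chromosome 12. Chromosome 1 was thus above the WT average, at 8.09 peaks per Mb, and the sparsest in *ddm1*. Left out of both lists, it raised the ratio of the remaining 11 chromosomes to 1.59. The excess was larger among peaks whose local background was at the lowest, genome-wide level, which numbered 1341 (22.2%) in WT and 2817 (30.5%) in *ddm1*, a ratio of 2.10, and the part of the background in the peak numbers was not tested.

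The low ratio of chromosome 1 went with a few long blocks in which H3K27me1 peaks were fewer in *ddm1*. When the 12 chromosomes were cut into 808 windows of 1 Mb, *ddm1* had more peaks than WT in 585 windows, fewer in 184 and the same number in 39. Chromosome 1 had 42 windows with fewer peaks out of 93 (45.2%), against 142 of 715 (19.9%) on the other chromosomes. Runs of 5 or more adjoining windows with fewer peaks occurred 3 times, and each was on chromosome 1. From 17000001 to 30000000 the peak number was 148 in WT and 68 in *ddm1*. From 52000001 to 61000000 it was 93 and 54, and from 10000001 to 16000000 it was 80 and 32. These blocks were picked for their lower counts, so the following is a description: they held 321 WT and 154 *ddm1* peaks in 28 windows, and the other 65 windows of chromosome 1 held 430 and 680, a ratio of 1.58.

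The longest runs of windows with more peaks in *ddm1* reached the outer parts of chromosomes. On chromosome 6 a run from 26000001 to 48000000 held 103 WT and 229 *ddm1* peaks. On chromosome 1 the run from 69000001 to 89000000 rose from 23 to 135 peaks, and on chromosome 4 the run from 50000001 to the end of the chromosome held 40 and 153. The changes in neighbouring windows were weakly alike (Spearman's rho 0.29 over 796 neighbouring pairs, a description, since a window enters 2 pairs). Of the 77 windows without a WT peak, 74 held *ddm1* peaks, 371 in all and at most 13 in a window. Windows picked for having no WT peak could not show a fall, so this is a description. The mean over all windows was 11.4 *ddm1* peaks. The WT-empty windows were rich in the active mark, with a median of 185 WT H3K9ac peaks against 15 over all windows. Only 4 windows were empty in *ddm1*.

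H3K27me1 rose most in the 1 Mb of chromosome 12 between 23000001 and 24000000, which held 13 peaks in WT and 41 in *ddm1*. H3K9me2 was little changed there, with 21 and 17 peaks, and H3K9ac went from 1 to 34 peaks. H3K27me3 stayed nearly absent, with 1 peak in WT and 0 and 1 in the 2 *ddm1* lists. The largest fall of H3K27me1 was between 22000001 and 23000000 of chromosome 1, from 24 to 5 peaks. In that window H3K9me2 went from 17 peaks to 1, H3K9ac from 2 to 46, and H3K27me3 from 7 to 77 and 93. The file name of the second *ddm1* H3K27me3 list gave the WT genotype, and the list was used as its label has it.

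A contrast in H3K27me3 was also seen over the windows as a whole, and it was smaller within the inner zone. In the 184 windows with fewer H3K27me1 peaks in *ddm1*, H3K27me3 peaks were more numerous in *ddm1* in 169 windows (91.8%) by the first *ddm1* list and 174 (94.6%) by the second. In the 585 windows with more H3K27me1 peaks, H3K27me3 was higher in 289 (49.4%) and 312 (53.3%). Most windows with fewer H3K27me1 peaks lay in the inner zone, and H3K27me3 peaks were fewer in *ddm1* in most outer windows. Among windows in the inner zone, at a relative distance of 0.5 to 1 between chromosome end and middle, the median H3K27me3 difference was 27 and 65 peaks per window where H3K27me1 was lower (119 windows). Where H3K27me1 was higher it was 12.5 and 30.5 peaks (260 windows). In this zone H3K27me3 was higher in *ddm1* in 110 (92.4%) and 113 (95.0%) of the windows with fewer H3K27me1 peaks. It was also higher in 210 (80.8%) and 215 (82.7%) of the windows with more.

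H3K9ac followed the same order in the inner zone, with a median rise of 77 peaks per window where H3K27me1 was lower and 56 where it was higher. H3K9me2 fell in most inner windows of both kinds, in 105 of 119 (88.2%) and 209 of 260 (80.4%). Over the 400 inner windows, the change in H3K27me1 had a Spearman's rho of −0.45 and −0.47 with the change in H3K27me3, −0.39 with that in H3K9ac and 0.10 with that in H3K9me2. Without chromosome 1 these values were −0.44, −0.45, −0.40 and 0.14 over 353 windows. They are given as a description, since neighbouring windows share their surroundings. The 3 chromosome 1 blocks held 261, 391 and 153 WT H3K27me3 peaks, against 960, 644 and 459 in the first *ddm1* list. Their H3K9me2 peaks went from 170 to 56, from 129 to 87 and from 66 to 33.

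**Figure D2:**
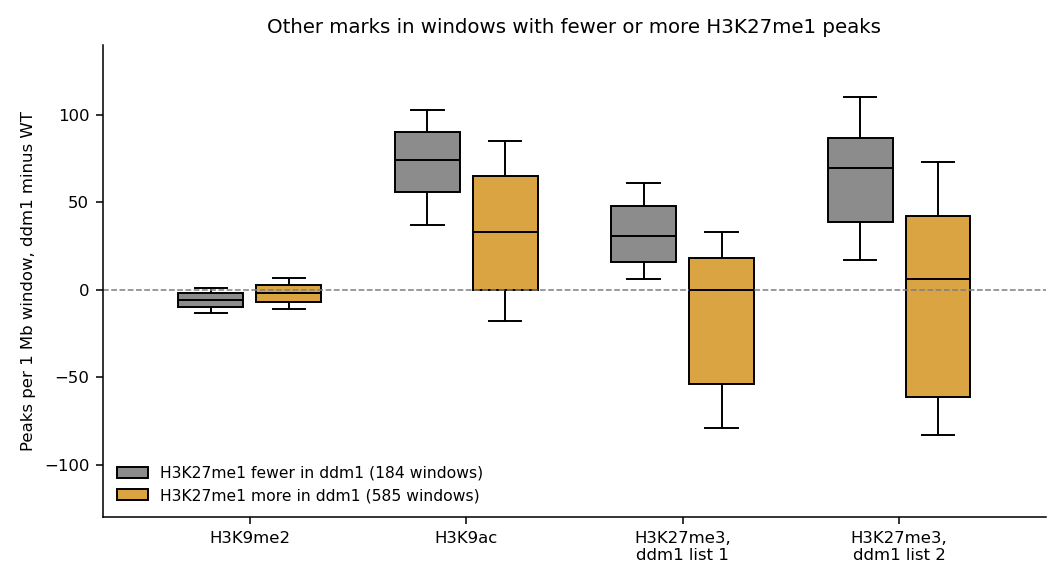
Change in the number of peaks of the other marks per 1 Mb window (*ddm1* minus WT) in the 184 windows with fewer and the 585 windows with more H3K27me1 peaks in *ddm1*; boxes span the 25th to 75th percentiles, lines inside them are medians and whiskers reach the 10th and 90th percentiles. The median H3K27me3 difference was 31 peaks in the first list and 69.5 in the second where H3K27me1 was fewer, against 0 and 6 where it was more. Inner and outer windows are pooled here.

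The second question was where along the chromosome the additional peaks lay. H3K27me1 was spread further towards the chromosome ends in *ddm1*, while its density also rose in the middle. Positions were scaled from the nearer chromosome end (0) to the middle of the chromosome (1) and divided into 10 bins of 80.2 Mb each over the genome. The end of a chromosome was taken as the last peak end in any list, and the middle is not the centromere. The WT profile climbed from 2.07 peaks per Mb in the outermost bin (166 peaks) to 4.05, 6.83 and 7.59 in the next 3 bins. It then stayed between 8.92 and 9.36 in the 6 bins nearest the middle. The *ddm1* profile began at 7.49 peaks per Mb (601 peaks), went on to 10.3, 11.5 and 11.7, and stayed between 11.9 and 13.0 further in.

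The ratio of *ddm1* to WT peaks therefore fell along the axis. It was 3.62 (3.04 to 4.33) in the outermost bin, 2.53 (2.22 to 2.88) in the next and 1.69 (1.52 to 1.88) in the one after that. From the bin starting at 0.5 onwards it lay between 1.28 and 1.38. The lowest value, 1.28 (1.16 to 1.41), was in the bin next to the middle.

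**Figure D3:**
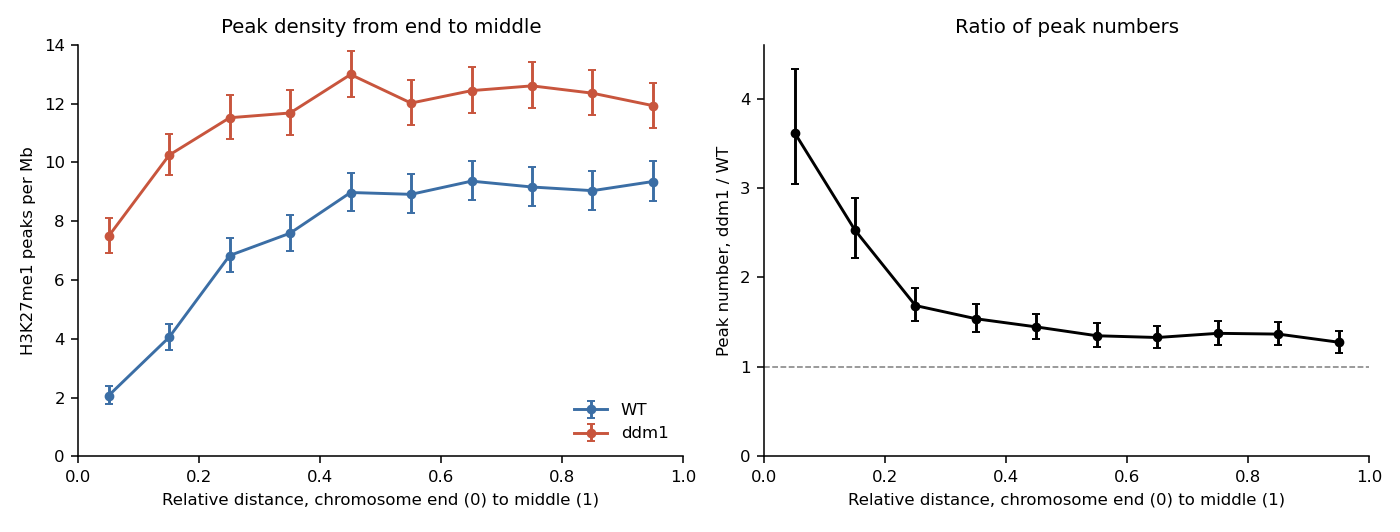
H3K27me1 peaks per Mb (left, WT in blue and *ddm1* in red) and the *ddm1* to WT ratio of peak numbers (right) in 10 bins of relative distance from the chromosome end (0) to the middle (1), with bars for 95% intervals of counting error. The ratio falls from 3.62 at the ends to 1.28 at the middle, and stays above 1 in each bin.

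The inner zone held 60.8% of WT and 53.2% of *ddm1* peaks, a difference of −7.60 percentage points (−9.20 to −6.00). The share was lower in *ddm1* on 11 chromosomes, with the interval below 0 on 10 of them. Chromosome 4 showed the largest drop, from 67.7% to 50.8%, and chromosome 8 went from 60.4% to 46.4%. Chromosome 2 was the exception, with 54.8% in WT and 58.0% in *ddm1*. The outermost bin held 2.75% of WT and 6.50% of *ddm1* peaks, again with chromosome 2 as the only one without a rise (8.78% and 8.69%).

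The 2 ends of chromosome 2 differed in WT. Its first 5 Mb held 54 WT H3K27me1 peaks and 34 WT H3K9ac peaks, and its last 5 Mb held 7 and 1242. In *ddm1* these ends held 85 and 16 H3K27me1 peaks. Over all chromosomes the first 5 Mb rose from 198 to 569 peaks and the last 5 Mb from 86 to 387, with more peaks in *ddm1* at both ends of each chromosome.

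By fold, the peaks in the outermost bin were not weaker than those in the bin next to the middle. Their median fold was 2.88 in WT and 2.94 in *ddm1*, against 2.77 and 2.73. Fold is a ratio to the local background, which was lower in the outermost bin. The background medians there were 7.46 reads in WT and 6.81 in *ddm1*, against 8.75 and 8.996 next to the middle. The folds therefore do not rank the bins by read pileup. Among *ddm1* peaks in the outermost bin, 85 of 601 (14.1%, 11.6 to 17.2) lay on a WT H3K27me3 peak, against 30 of 4921 (0.610%) in the inner zone. WT H3K27me1 had 2 of 166 peaks on WT H3K27me3 in the outermost bin. WT H3K27me3 peaks were themselves denser near the ends, with 7526 in the outermost bin and 8498 in the much larger inner zone. The part of this density in the overlaps was not tested. In the *ddm1* lists themselves, 5 and 36 of the 601 *ddm1* H3K27me1 peaks lay on H3K27me3.

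H3K9me2 overlapped more of the H3K27me1 peaks near the ends than in the inner zone. The WT shares were 30.1% (23.7 to 37.5) and 13.7% (12.7 to 14.9), and the *ddm1* shares were 14.6% (12.04 to 17.69) and 8.78% (8.02 to 9.60). H3K9me2 itself had 256 WT and 504 *ddm1* peaks in the outermost bin, a ratio of 1.97. In the inner zone its ratio was 0.619, where that of H3K27me1 was 1.34. Both constitutive marks were thus more numerous in *ddm1* near the ends, and their ratios lay on opposite sides of 1 in the inner zone.

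Spacing and clustering were examined next. H3K27me1 summits lay closer together in *ddm1*, and a larger share of them had a near neighbour. With lists of equal size the share was still larger, but the median distance was close to that of WT. The median distance from one summit to the next was 66.7 kb (63.7 to 69.8) in WT and 43.4 kb (42.0 to 45.1) in *ddm1*. It was shorter in *ddm1* on each chromosome, with intervals apart on 10 (not on chromosomes 1 and 6). The chromosome medians ran from 55.7 kb on chromosome 1 to 83.6 kb on chromosome 4 in WT. In *ddm1* they ran from 37.5 kb on chromosome 2 to 47.5 kb on chromosome 6, a narrower range. The longest stretch without a summit measured 5.69 Mb in the WT list and 2.10 Mb in the *ddm1* list.

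The share of peaks with another summit within 5 kb was 15.9% (964 peaks) in WT and 24.96% (2308 peaks) in *ddm1*, a difference of 9.01 percentage points (7.72 to 10.3). The difference was above 0 on all 12 chromosomes, with an interval above 0 on 10. The widest gap was on chromosome 7, from 12.4% to 26.7%, and the narrowest differences were on chromosome 10 (20.3% and 23.0%) and chromosome 11 (18.8% and 21.6%). When the *ddm1* list was reduced to its 6044 strongest peaks, the median distance was 65.4 kb, close to that of WT. The share with a neighbour within 5 kb was still 20.7%, and gaps of at most 5 kb numbered 700 against 529 in WT. This cut kept peaks by strength, and *ddm1* peaks in clusters (defined below) had a median fold of 2.99 against 2.81 outside. The part of strength in the remaining difference was not tested. At 1 kb or less the numbers were 247 and 215.

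**Figure D4:**
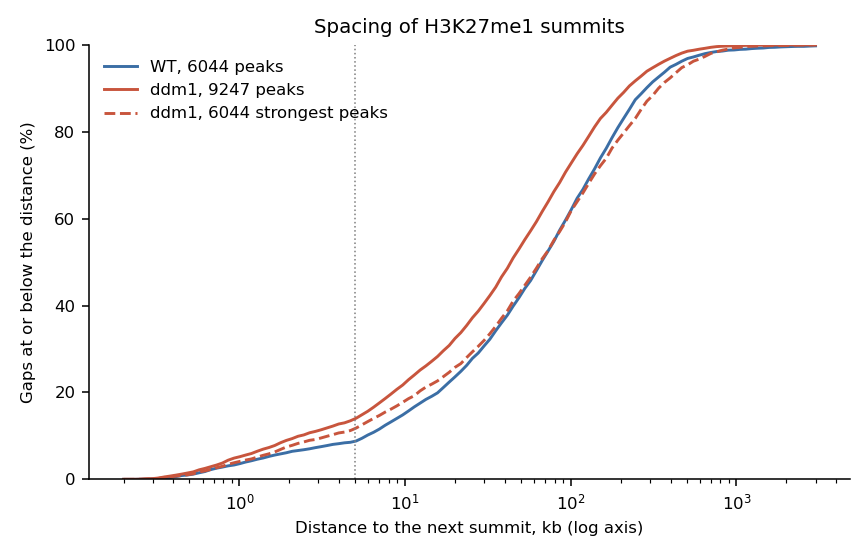
Cumulative share of distances between successive H3K27me1 summits (log axis, kb) in WT (blue), in *ddm1* (red) and in the 6044 strongest *ddm1* peaks (dashed red), with the 5 kb limit dotted. At 5 kb the curves stand at 8.77%, 13.9% and 11.6%, and the dashed curve meets the WT curve at longer distances, with medians of 65.4 and 66.7 kb.

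Clusters, defined as runs of at least 3 peaks with successive summits at most 5 kb apart, numbered 55 in WT and 179 in *ddm1*. They held 204 WT peaks (3.38%) and 612 *ddm1* peaks (6.62%), or 336 in 95 clusters at equal list size. Most were of the smallest size, 41 in WT and 129 in *ddm1* having 3 peaks, and no cluster had more than 8. The median span was 3.10 kb in WT and 3.53 kb in *ddm1*. Every chromosome had more clusters in *ddm1*, from 10 against 13 on chromosome 10 to 4 against 27 on chromosome 12.

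Peaks in clusters overlapped a peak of the other list more often than the other peaks did. Most overlapping WT peaks still lay outside clusters, 922 against 104 inside. Clustered peaks also had higher folds, with medians of 2.97 against 2.82 in WT and 2.99 against 2.81 in *ddm1*. The part of fold in the overlap was not tested. Of WT peaks in clusters, 51.0% (44.2 to 57.8) overlapped a *ddm1* peak by at least 1 bp, against 15.8% (14.9 to 16.7) of the others. For *ddm1* the shares were 25.3% (22.0 to 28.9) and 10.1% (9.48 to 10.8). A cluster of one list overlapped a cluster of the other in 20 cases, which was 36.4% of WT clusters and 11.2% of *ddm1* clusters. H3K9me2 of the same genotype also lay on more of the clustered peaks, with 45.6% against 14.2% in WT and 23.7% against 10.1% in *ddm1*.

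The largest WT clusters had 8 peaks each, and 5 clusters were tied. A cluster on chromosome 9 from 32954994 to 32963884 was matched in *ddm1* by an 8-peak cluster from 32955027 to 32963917, the largest of that list, and all 8 peaks were shared. Its highest fold was 4.18 in WT and 4.76 in *ddm1*. A neighbouring cluster from 32969496 to 32983138 and one on chromosome 4 from 48524247 to 48541979 had 7 of 8 WT peaks shared. The strongest was on chromosome 9 from 64216684 to 64230691, with a fold of up to 7.64, 6 shared peaks and a background at the genome-wide level.

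The remaining WT cluster, on chromosome 1 from 92835506 to 92843018, had 6 of 8 peaks shared. Among the tied clusters it had the lowest folds and the highest background. It lay at the very end of the mapped chromosome, its folds ran from 1.70 to 2.43, and its local background reached 39.6 reads. The chromosome 9 cluster from 32969496 came nearest, with folds down to 1.93 and a background of up to 29.6 reads. In *ddm1* the next largest clusters had 7 peaks, on chromosome 2 from 12378141 to 12387170 and on chromosome 8 from 66722281 to 66734195. Each of these had 2 shared peaks, so most of their peaks were called in *ddm1* alone.

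Peaks called in both genotypes were compared last. A minority of the H3K27me1 sites was shared. Of the WT peaks, 1026 (17.0%, 16.1 to 17.9) overlapped a *ddm1* peak, and 1027 *ddm1* peaks (11.1%, 10.5 to 11.8) overlapped a WT peak. The WT share ran from 11.3% on chromosome 1 to 22.1% on chromosome 8. Shared peaks coincided closely, with a median overlap of 162.5 bp or 92.9% of the shorter peak. The others were mostly far from any peak of the other list: WT peaks that were not shared lay at a median of 28.1 kb from the nearest *ddm1* summit, and 5.78% of them lay within 1 kb.

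Sharing rose with peak strength. Ordered by fold and divided into 10 groups, the WT peaks were shared in 8.60% (6.61 to 11.1) of cases in the weakest group and 38.2% (34.4 to 42.1) in the strongest. The *ddm1* shares in the weakest and strongest groups were 4.65% and 22.2%. Among the peaks with a fold of at least 5, 22 of 24 in WT and 25 of 28 in *ddm1* were shared. Shared peaks were also longer, with a median of 215 bp against 186 bp in WT and 225 bp against 193 bp in *ddm1*.

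WT peaks near the chromosome ends were shared most often. The share was 39.8% (32.6 to 47.4) in the outermost bin and between 11.8% and 20% in the others. The number of WT peaks not shared there was 100, while 534 *ddm1* peaks of that bin were not shared. The *ddm1* share in the bin was 11.1% (8.87 to 13.9), no higher than the 11.1% over all *ddm1* peaks. The ratio of *ddm1* to WT peaks was 3.62 in this bin, and the part of peak number in the WT share was not tested. WT peaks that were not shared lay on *ddm1* H3K9ac and H3K27me3 peaks more often than shared ones did, and on *ddm1* H3K9me2 peaks less often. The shares were 14.4% (13.4 to 15.4) against 6.82% (5.44 to 8.53) for H3K9ac and 6.06% (5.43 to 6.75) against 16.6% (14.4 to 19.0) for H3K9me2. For H3K27me3 they were 5.42% against 1.27% in the first *ddm1* list and 24.9% against 13.5% in the second. Over all WT peaks the shares were 13.1% for H3K9ac, 7.84% for H3K9me2, and 4.72% and 22.9% for H3K27me3. The H3K9me2 contrast was already present in WT, where 13.5% of the WT peaks not shared and 24.0% of the shared ones lay on WT H3K9me2. Whether these overlaps have a part in the sharing was not tested.

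Summit positions were then compared at the shared peaks. Each of the 1026 shared WT peaks was paired with the *ddm1* peak it shared most bases with. The median distance between the summits was 62 bp (58 to 66), with 25th and 75th percentiles of 26 and 128 bp. Since pairs were chosen by overlap and the shared peaks had median lengths of only 215 and 225 bp, a short distance was largely fixed by the choice. It was at most 50 bp in 429 pairs (41.8%) and over 147 bp, the shortest peak length in both lists, in 217 (21.2%). The shift had no preferred side, with 507 *ddm1* summits at higher and 513 at lower coordinates and a median signed shift of −0.5 bp (−6 to 5). The chromosome medians ran from 51 bp on chromosome 5 to 71 bp on chromosome 6.

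The shift was smaller at stronger pairs. With the pairs divided into 4 groups by the fold of their weaker peak, the median was 76 bp (63 to 87), 70.5 bp, 63.5 bp and 41 bp (33 to 47) from the weakest to the strongest group. For comparison, the 29984 shared H3K9ac pairs of the same genotypes had a median shift of 52 bp in much longer peaks (median 791 bp for the shared WT peaks), so the shifts of the marks are not on one footing.

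Enrichment at the shared peaks was nearly the same in the genotypes. The median fold was 3.01 in WT and 2.95 in *ddm1*, and the median log2 ratio of *ddm1* to WT was −0.03 (−0.04 to −0.01), a ratio of 0.980. The *ddm1* fold was the higher one in 469 pairs (45.7%, 42.7 to 48.8). The median log2 ratio was below 0 on 11 chromosomes, and its interval covered 0 on all 12. The sign was not stable: with lists of equal size the median was 0.02, with read pileups in place of folds it was 0.00, and with folds multiplied by the background level it was −0.066. The pileups had medians of 26 and 27 reads in WT and *ddm1*.

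Few pairs differed by 1.5-fold. In *ddm1* the fold was at least 1.5 times higher in 15 pairs (1.46%) and at least 1.5 times lower in 11 (1.07%), within a range of ratios from 0.532 to 1.83. A site had to pass the threshold in both lists to be counted, which bounds these ratios. H3K9ac pairs, measured the same way, were 1.5-fold higher in 5.1% and lower in 27.8% of cases, with a median log2 ratio of −0.33. Their folds were higher, with medians of 6.22 in WT and 4.85 in *ddm1*, so the threshold bounds their ratios less. The shares of the marks are thus not on one footing. The folds of the H3K27me1 pairs had a Spearman's rho of 0.46 across sites, which share their libraries.

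**Figure D5:**
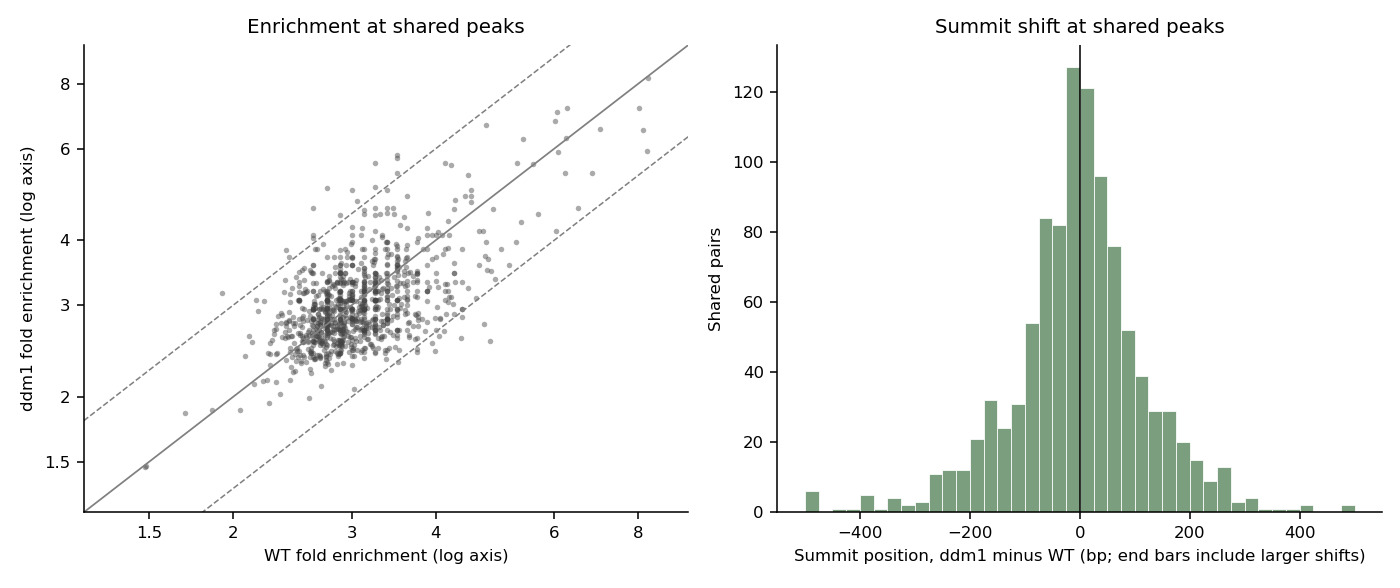
Fold enrichment of the 1026 shared H3K27me1 pairs in WT and *ddm1* (left, log axes, solid line at equal folds and dashed lines at 1.5-fold), and the position of the *ddm1* summit relative to the WT summit (right, 25 bp bins, with the 7 pairs beyond 500 bp added to the end bars). The pairs lie along the line of equal folds, and the shifts centre on 0 with 507 pairs to the right and 513 to the left.

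The 3 shared pairs named next were chosen for the highest fold of their weaker peak, so their presence in both lists was fixed by the choice. On chromosome 7, 2.22 Mb from the chromosome end, the peak from 66241399 to 66241772 had a fold of 8.27 in WT and 8.20 in *ddm1*, with summits 26 bp apart. On chromosome 3 the peak from 60141003 to 60141181 had folds of 8.02 and 7.17, and its summits lay 10 bp apart. On chromosome 9 the peak from 67107121 to 67107454 had folds of 7.01 and 6.55, with a shift of 63 bp. The read pileups at these 3 sites were also alike, with WT values of 65, 63 and 55 reads and *ddm1* values of 63, 55 and 51.

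Among the 32 pairs whose stronger peak reached a fold of 5, the largest increases in *ddm1* were at sites without a peak of H3K9me2 or H3K9ac in either genotype. Most shared peaks lacked these marks too. Of the 1026 shared WT peaks, 246 (24.0%) lay on WT and 170 (16.6%) on *ddm1* H3K9me2 peaks, and 1 and 70 on H3K9ac peaks. At the increases, the fold was 2.76 in WT and 5.04 in *ddm1* on chromosome 3 from 19997830 to 19998057. It was 3.26 and 5.64 on chromosome 2 from 24103568 to 24103870, and 3.51 and 5.84 on chromosome 3 from 56967567 to 56967854. The summits of these pairs were 8, 1 and 18 bp apart. The pairs were picked for the largest ratios, so a large difference in fold was fixed by the choice.

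The largest decreases in these pairs were smaller than the increases, with *ddm1* to WT ratios of 0.689, 0.698 and 0.708 against 1.83, 1.73 and 1.66. The fold was 6.05 in WT and 4.17 in *ddm1* on chromosome 10 from 15301034 to 15301364, a site with H3K9me2 in both genotypes. It was 5.13 and 3.59 on chromosome 11 from 10754444 to 10754673, and 6.51 and 4.61 on chromosome 3 from 66035448 to 66035760. These chromosome 11 and chromosome 3 sites had no H3K9me2 or H3K9ac peak in either genotype. All 3 sites of decrease lay in an H3K27me3 peak of the second *ddm1* list and in none of the first. So did the 3 strongest pairs and, among the increases, the site on chromosome 3 from 56967567. The strongest pair, on chromosome 7, also lay on a WT H3K27me3 peak. Of all shared WT peaks, 1.27% lay on H3K27me3 of the first *ddm1* list and 13.5% on that of the second.

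The strongest WT peaks without a *ddm1* partner both lay inside the 8-peak chromosome 9 cluster described above. The peak from 64223340 to 64223519 had a fold of 7.64 and a *ddm1* summit 322 bp away, and that from 64225681 to 64225869 had a fold of 7.39 with the nearest *ddm1* summit at 1953 bp. The strongest *ddm1* peaks without a WT partner stood alone. They lay on chromosome 8 from 56477652 to 56477964 and on chromosome 11 from 54305768 to 54306274, both with a fold of 5.25, and the nearest WT summits were 401600 and 220244 bp away. The chromosome 11 site also had a *ddm1* H3K9me2 peak.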

How the data were processed

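Per the labels and the methods of the study, the authors trimmed ChIP-seq reads with Trimmomatic (0.38 in the submitters' processing notes), aligned them with Bowtie2 (2.3.5 in those notes, another version in the methods) to the M82 V1.0 assembly, handled alignments with SAMtools (1.9) and called peaks with MACS3 at a q-value of 0.05 with a stated extension of 150 bp. The shortest H3K27me1 peak was nevertheless 147 bp. The H3K27me1 antibody was Millipore 07-448. The methods describe independent biological replicates, but there was 1 H3K27me1 list per genotype, and the control and any pooling of replicates were not stated. The deposited values of each peak were a fold enrichment (a ratio to the local background), −log10 values of p and of q, and an integer score that follows from the q-value. Of the broad lists of H3K27me3 and H3K9me2 only the positions were used. The series' metadata file was not used.

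Peaks on chromosomes 1 to 12 were used as deposited, in coordinates of M82 V1.0, counted from 1. Windows and profiles used the summit, or the midpoint of peaks without one. Lists shared a peak at an overlap of at least 1 bp. Read depths were not given, so pileup and local background were solved from fold and −log10 p, and a pileup was accepted when whole within 0.001 in −log10 p. This succeeded for 6041 WT and 9245 *ddm1* peaks, all those with a −log10 p below 50. Counts have exact Poisson, ratios exact binomial, shares Wilson, differences Newcombe and medians binomial 95% intervals. With 1 list per genotype no test was made. Peak lists without an annotation hold no marker genes, so the labelled tissue was not checked. The functions were tested on simulated peak lists. Python 3.11.15, numpy 2.4.6, pandas 2.3.3, scipy 1.17.1 and matplotlib 3.10.9 were used.

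The measures, limits and lists were chosen with earlier results of these data known. Regions named by rule were the 3 shared pairs with the highest weaker fold, the 3 with the largest and the 3 with the smallest log2 ratio among pairs reaching a fold of 5, the 2 clusters with most peaks per genotype with ties, the 1 Mb windows with the largest rise and fall, and the 2 strongest peaks of each genotype that were not shared. The runs of windows were chosen after their values were seen. Alternatives were a q of 0.01, lists of equal size (strongest by −log10 p), other neighbour limits, overlaps, pairings and chromosome ends, and, added after seeing the data, read pileup, peaks at the genome-wide background only, and leaving out chromosome 1 or 2.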

Additional observations from a re-analysis of the deposited data

How the results depend on the processing

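Of 58 alternative values of the 8 measures, 36 stayed within the interval of the reported value, 21 moved beyond it and 1 changed sign. The settings named below as added were chosen after seeing the data, and the cause of these changes was not tested. At a q of 0.01 or lower the share of peaks with a neighbour within 5 kb was 14.4% in WT and 23.7% in *ddm1*. With lists of equal size the *ddm1* share was 20.7%, the shared WT peaks came to 13.5%, and the median log2 ratio of fold changed sign to 0.020. Neighbour limits of 1 kb and 20 kb gave 6.83% and 40.1% in WT and 9.85% and 51.9% in *ddm1*. The central zone of a narrower cut, a chromosome divided into 3 equal parts, held 40.8% of WT and 36.0% of *ddm1* peaks. An overlap of 50% of the shorter peak gave 15.0% shared WT peaks and a summit shift of 56 bp. Fold multiplied by the background level gave a median log2 ratio of −0.066, and the added read pileup gave 0.00. The added restriction to peaks at the genome-wide background gave a peak number ratio of 2.10, neighbour shares of 14.2% and 22.9%, inner shares of 50.0% and 40.0% and 15.1% shared WT peaks. Leaving out chromosome 1, also added, gave a peak number ratio of 1.59. In every setting run the neighbour share was higher in *ddm1*, by 3.02 to 11.7 percentage points, and the inner share lower, with differences from −9.99 to −4.79. No paired analysis was possible because each genotype had 1 list, and none could be left out. Peak lists do not show signal below the threshold, so a peak absent from a list may still carry the mark.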
